A study of Caenorhabditis elegans with 4 samples.

Results

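The left arm of chromosome II held 779 of the 9630 SWD-3 peaks in the series-wide list, 779 of the 1537 on that chromosome. These regions were taken by position alone: a peak belonged to the arm when its midpoint lay in the first 3.82 Mb (WormBase WS220 coordinates), the outer 25% of the chromosome. The study mapped SWD-3 by ChIP-seq in wild-type worms (Caenorhabditis elegans, strain N2), using embryos of mixed stages and both sexes that were harvested from liquid cultures and fixed with formaldehyde. The groups were 2 ChIP libraries, made with an affinity-purified rabbit polyclonal antibody against SWD-3, and 2 input DNA libraries, and the labels do not say if separate embryo batches were used. A peak list was used for each ChIP replicate, together with the list for the whole series; the signal of the input libraries was not analysed here. Without read counts the depth is unknown, and a place with no peak is a place where none was called.

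SWD-3 belongs to the WDR5 family of WD40-repeat proteins, subunits of the COMPASS-type complexes that methylate lysine 4 of histone H3, a mark of active promoters. Worm autosomes have gene-dense centres flanked by arms that carry more repeated sequence, more methylation of lysine 9 of histone H3 and more contact with the nuclear envelope. In meiosis each chromosome finds its partner through a pairing centre near an end, which for chromosome II has been placed on the left arm; its position was not used here, and these embryo data do not measure pairing.

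The series list was dense on the left arm and its peaks stood close together. The arm had 204 peaks per Mb, against 66.2 per Mb on the rest of II (758 peaks in 11.4 Mb), a ratio of 3.08. The peaks covered 705 kb of the arm (18.5% of its length), against 351 kb of the rest of II (3.07%), a ratio of 6.02. The centre of II had 50.3 peaks per Mb and its right arm 98.0 per Mb, so the arms of this chromosome also differed from each other. The series list is a single list with no replicate of its own, so these differences have no test; peaks are not replicates of a condition.

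Widths were alike at the lower end and apart at the upper end. The median width was 363 bp on the left arm (quartiles 223.5 and 837.5) and 304.5 bp on the rest of II (quartiles 222.0 and 425.75). The narrowest peak was 146 bp in both. Peaks wider than 1500 bp numbered 111 on the left arm (14.2%, 95% Wilson interval 12.0 to 16.9), against 28 on the rest of II (3.69%, interval 2.57 to 5.29). Over all nuclear peaks of the series list this share was 9.29%. The wide peaks covered 417 kb of the 705 kb on the left arm, and 87.8 kb of the 351 kb on the rest of II. Here and below, intervals on shares cover counting error only.

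Neighbouring peaks were separated by a median gap of 475 bp on the left arm (quartiles 158 and 2212.75, 778 gaps), against 6193 bp on the rest of II (quartiles 803.75 and 20003, 756 gaps). Within the rest of II the median gap was 11214 bp in the centre and 2207 bp on the right arm. Gaps under 200 bp made up 30.7% of those on the left arm and 11.0% of those on the rest of II. The smallest gap was 43 bp and 44 bp, and the largest gap on the left arm was 113505 bp. A run was defined as 3 or more consecutive peaks with gaps of at most 2000 bp. By that definition 619 of the left-arm peaks lay in 72 runs (79.5%, interval 76.5 to 82.1), against 235 of the peaks on the rest of II in 52 runs (31.0%, interval 27.8 to 34.4). Within the rest of II the share in runs was 13.8% in the centre and 48.7% on the right arm. Runs of 10 or more peaks numbered 16 on the left arm and 2 on the rest of II, both of these on the right arm. When peaks across such gaps were joined and counted once, the left arm had 204 joined regions (53.5 per Mb) and the rest of II 502 (43.9 per Mb), which brought the ratio of densities to 1.22.

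**Figure D1:**
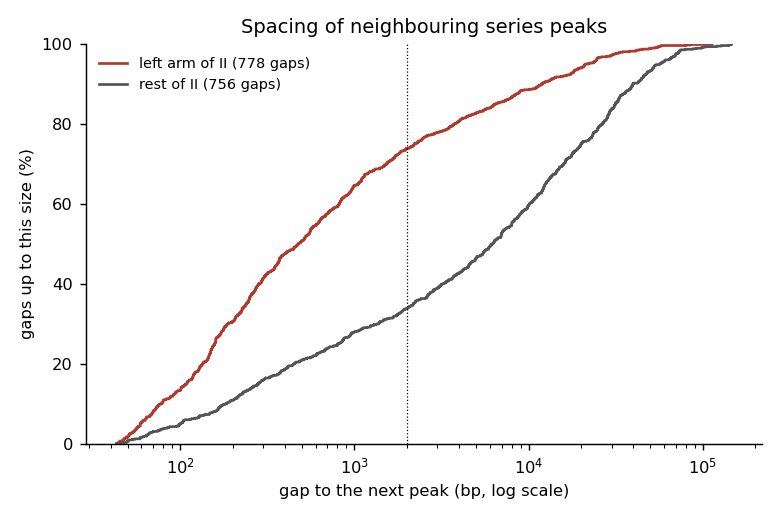
Cumulative share of gaps between neighbouring series peaks (y axis, %) against gap size (x axis, bp, log scale) on the left arm of II (778 gaps) and the rest of II (756 gaps); the dotted line marks 2000 bp, the largest gap allowed within a run. The left-arm curve lies to the left, with a median of 475 bp against 6193 bp.

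The runs were concentrated in the middle of the arm. The interval from 1000001 to 2000000 had the most peaks of the 1 Mb intervals, 304, with 36.1% of its length covered and 62 peaks wider than 1500 bp. The first 1 Mb had 131 peaks and 6.60% covered, and the interval from 2000001 to 3000000 had 242 peaks and 20.4% covered. The remaining 0.816 Mb up to the boundary had 102 peaks, or 125 per Mb, the lowest density of the 4 intervals. In the same 4 intervals replicate 1 had 34, 27, 20 and 18 peaks and replicate 2 had 35, 19, 25 and 23. At a finer scale replicate 1 had a local cluster there. The 250 kb from 1750001 to 2000000, which held 123 series peaks, had 15 peaks in replicate 1, its most in any such interval of the arm, and 2 in replicate 2.

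**Figure D2:**
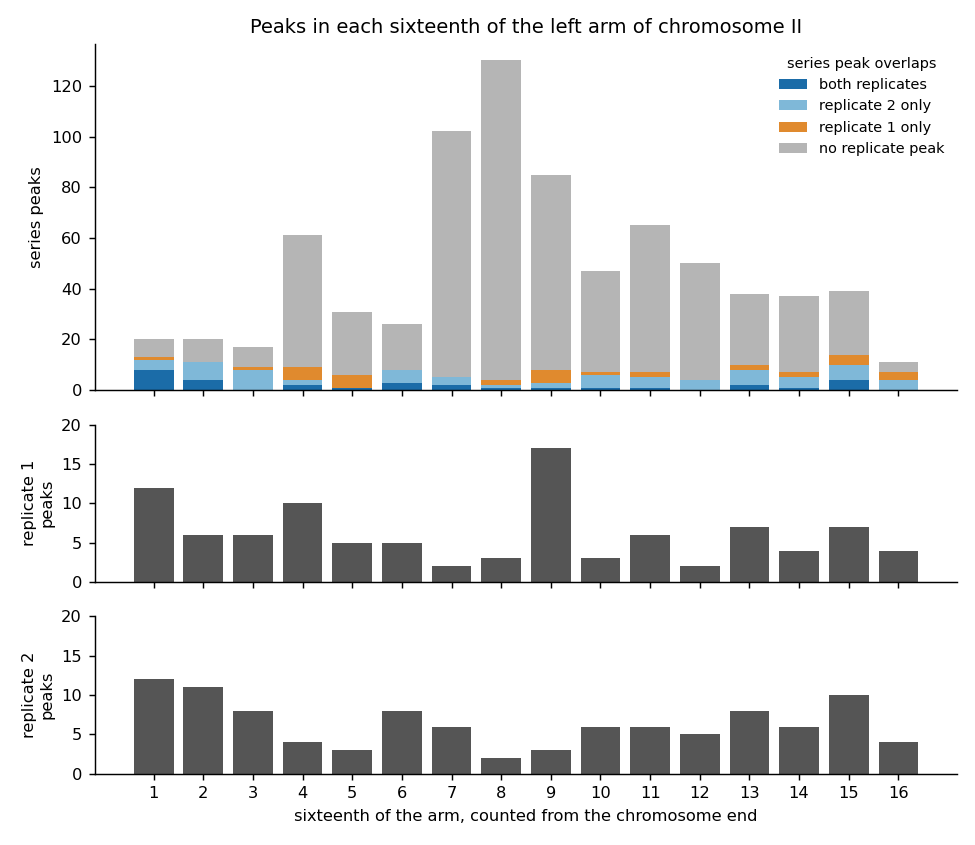
Number of peaks (y axes) in each of 16 equal parts of the left arm, counted from the chromosome end (x axis), for the series list (top, coloured by which replicate peaks they overlap), replicate 1 (middle) and replicate 2 (bottom). The eighth part holds 130 series peaks, 126 of them with no replicate peak, while replicate 1 has 3 peaks there and replicate 2 has 2. The ninth part holds 85 series peaks and 17 replicate 1 peaks, the most of that replicate in any part, beside 3 in replicate 2.

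The run with most peaks extended from 1556865 to 1652170 and held 57 peaks that covered 71.3% of its 95306 bp. Their scores ranged from 1.43 to 70.19 with a median of 7.12, and neither replicate had a peak within the run. The next, from 1789064 to 1884216, held 51 peaks covering 77.4% of its length; replicate 1 had 3 peaks there and replicate 2 had 2. The run from 1727654 to 1786164 held 34 peaks covering 80.0%, again with no replicate peak. These 3 runs held 142 peaks, 18.2% of those on the arm. Of the 72 runs, 47, with 370 peaks, contained no peak that overlapped either replicate, and 8 contained at least 1 that overlapped both.

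All 5 of the widest peaks lay in runs, and 4 of them met no replicate peak. The widest, from 1002880 to 1019022 (16143 bp, score 46.46, rank 439 of 9630), overlapped no replicate peak. The second, from 1934657 to 1950242 (15586 bp, score 18.71), overlapped a replicate 1 peak of rank 2181 of 2698. Those at 1736962 to 1747907, 2279250 to 2290166 and 3044044 to 3054492 were between 10449 and 10946 bp wide and overlapped none.

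Scores are the authors' own value for each peak on a scale that no header names, so they were compared only within a list. Left-arm peaks ranked lower than those on the rest of II. Their median percentile in the whole series list was 42.1 (quartiles 20.9 and 68.6), against 55.4 (quartiles 29.5 and 80.1), a difference of -13.3 points. The median percentile was 61.8 in the centre of II and 49.1 on its right arm, so the right arm was nearer to the left arm. The highest-scoring 25% of the series list took in 149 left-arm peaks (19.1%) and 225 on the rest of II (29.7%). These high-scoring peaks differed in shape as well, with a median width of 1678 bp on the left arm and 373 bp on the rest of II.

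Of the left-arm peaks, 31 overlapped a peak in both replicates by at least 1 bp (3.98%, interval 2.82 to 5.59), against 183 on the rest of II (24.1%, interval 21.2 to 27.3). Over the whole series list this share was 15.2%, in the centre of II 28.4% and on its right arm 19.8%. A further 65 left-arm peaks overlapped replicate 2 only (8.34%), against 319 on the rest of II (42.1%) and 26.7% of the whole list. Replicate 1 only was met by 33 left-arm peaks (4.24%) and 24 on the rest of II (3.17%), against 3.4% of the whole list. The remaining 650 left-arm peaks overlapped no replicate peak (83.4%, interval 80.7 to 85.9), against 232 on the rest of II (30.6%, interval 27.4 to 34.0) and 54.7% of the whole list. Within the rest of II this share was 12.0% in the centre and 49.7% on the right arm. How the series list was made from the libraries is not given in the sources used here. If the lists share reads, an overlap is no independent support for a site.

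Overlap went with position inside or outside runs. In runs, 54 of 619 left-arm peaks overlapped a peak in at least 1 replicate (8.72%, interval 6.75 to 11.2), and outside runs 75 of 160 did (46.9%, interval 39.3 to 54.6). On the rest of II the shares were 33.6% of 235 peaks in runs (interval 27.9 to 39.9) and 85.5% of 523 outside them (interval 82.2 to 88.2). The left arm had the lower share in both kinds of position, a description with no test. Widths moved with this split, with medians of 409 bp in runs and 286 bp outside runs on the left arm. The part of width in the difference was not tested.

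**Figure D3:**
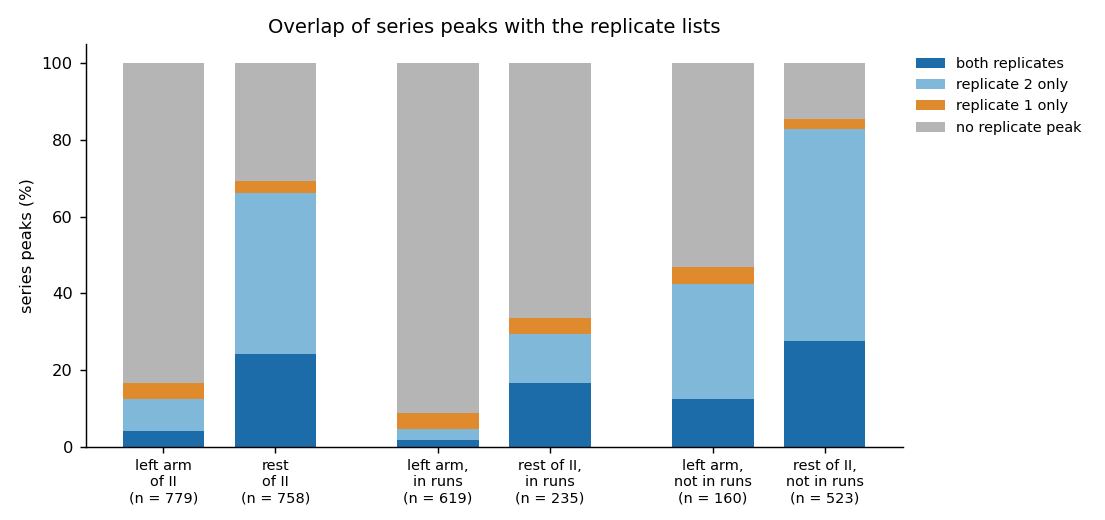
Share of series peaks (y axis, %) that overlap a peak in both replicates, in replicate 2 only, in replicate 1 only or in neither, for all peaks, peaks in runs and peaks outside runs, with the left arm of II to the left of the rest of II in each pair. Peaks with no replicate peak make up 83.4% of the left arm and 30.6% of the rest of II.

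Score set against width differed by overlap with replicate 2. Among left-arm peaks without a replicate peak, score rose with width (Spearman's rho = 0.74 across 650 peaks, which share their libraries and are not independent). Among the 96 that overlapped replicate 2, rho was 0.57 and median scores were higher in both width classes compared. In the class wider than 200 and up to 400 bp, the 63 left-arm peaks that overlapped replicate 2 had a median score of 15.8 (quartiles 9.07 and 24.41), and the 192 with no replicate peak had 4.67 (quartiles 3.51 and 6.46). On the rest of II the same medians were 14.42 (311 peaks) and 4.83 (90 peaks), close to those of the arm. In the class wider than 400 and up to 800 bp, these medians were 38.3 (16 peaks) and 7.76 (133 peaks) on the left arm, and 29.0 (93 peaks) and 6.71 (50 peaks) on the rest of II. Left-arm peaks that overlapped replicate 1 only were at the lower level, with a median of 4.16 (7 peaks) in the narrower class and 4.49 (3 peaks) in the wider one. Wide peaks reached high scores without a replicate 2 peak. Of the 111 left-arm peaks wider than 1500 bp, 94 overlapped no replicate peak (84.7%, close to the 83.4% of all left-arm peaks), 16 overlapped replicate 1 only, and 1 overlapped both. On the rest of II, 15 of 28 such peaks overlapped none (53.6%).

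**Figure D4:**
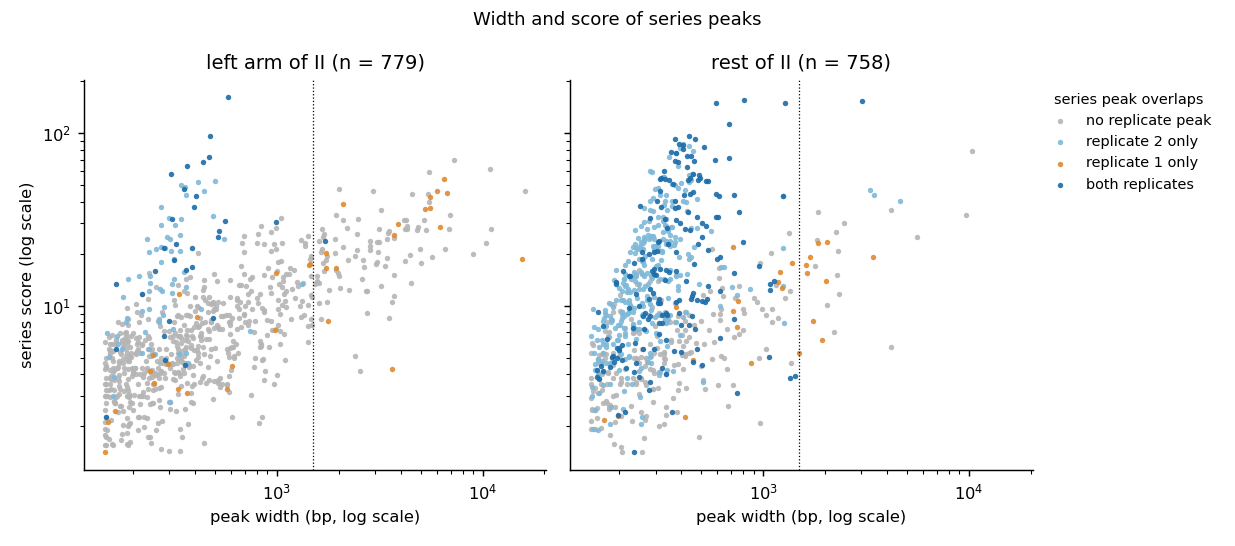
Series score (y axis, log scale) against peak width (x axis, bp, log scale) for each series peak on the left arm of II (left) and on the rest of II (right), coloured by overlap with the replicate lists; the dotted line marks 1500 bp. In the width classes of 200 to 400 bp and 400 to 800 bp, peaks that overlap replicate 2 have higher median scores than peaks with no replicate peak. Of the wide peaks of the left arm, 94 of 111 have no replicate peak, a share (84.7%) like that of the whole arm (83.4%).

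The 10 highest-scoring left-arm peaks were both narrow and wide. The first, from 255023 to 255603, was 581 bp wide and had the second highest score of the whole series list, 161.17. It was also the highest-scoring peak of the arm in each replicate, with rank 39 of 2698 in replicate 1 (score 1387.05) and rank 17 of 4580 in replicate 2 (score 2960.45). The second, from 3118808 to 3119282 (score 95.9, series rank 61), had rank 95 in replicate 1 and rank 66 in replicate 2. These peaks stood alone, with no neighbour within 2000 bp.

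Of the other 8, 4 were narrow peaks found in both replicates. The peak from 155831 to 156300 (score 73.2) had rank 904 in replicate 1 and 225 in replicate 2. The peak from 2219813 to 2220249 (score 68.09) had ranks 1107 and 289, that from 2889189 to 2889555 (score 64.81) ranks 723 and 523, and that from 216600 to 216905 (score 58.21) ranks 944 and 640. The remaining 4 were between 5519 and 10917 bp wide. Those at 1642559 to 1649861 (score 70.19), 2279250 to 2290166 (61.68) and 2018384 to 2023902 (59.72) overlapped no replicate peak, and that at 2003359 to 2009832 (54.45) overlapped 4 replicate 1 peaks and no replicate 2 peak.

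Widths of the 31 left-arm peaks that met both replicates ranged from 147 to 1711 bp. The median, 362 bp, was close to the 363 bp of all left-arm peaks. Wide peaks were few among the 31: 1 exceeded 1500 bp (3.23%), against 111 of all 779 left-arm peaks (14.2%). The median score of the 31 was 22.77. Of them, 20 lay outside runs and 20 were in the highest-scoring 25% of the series list. The part nearest the chromosome end was rich in them: 12 of the 31 lay in the first 500 kb, which held 41 of all 779 left-arm peaks. Among these 31 peaks Spearman's rho of the series score was 0.81 with the replicate 2 score and 0.47 with the replicate 1 score, as a description over peaks of the same libraries. Towards the other end of the arm, 3 of the 31 stood close together at 3519033 to 3523885, with series scores of 16.04, 30.77 and 47.59.

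Counted in peaks, neither replicate list was denser on the left arm than on the rest of II. Replicate 1 had 99 peaks on it (25.9 per Mb), against 323 on the rest of II (28.2 per Mb), a ratio of 0.919. Replicate 2 had 102 (26.7 per Mb), against 571 (49.9 per Mb), a ratio of 0.536. The mean ratio was 0.728 ± 0.271 (SD, n = 2 libraries), and with 2 libraries no test between regions was made. In covered length replicate 1 was higher on the arm, with 15.9 kb per Mb on the left arm against 14.0 kb per Mb on the rest of II, whereas replicate 2 was lower, with 13.7 kb per Mb against 31.2 kb per Mb. Within the rest of II, replicate 1 covered 17.4 kb per Mb on the right arm and 12.3 kb per Mb in the centre. Its peak density was 32.8 per Mb on the right arm and 25.9 per Mb in the centre. In replicate 1, 7 of the 99 left-arm peaks were wider than 1500 bp (7.07%), against 5 of 323 on the rest of II (1.55%), and 0 of 102 against 15 of 571 (2.63%) in replicate 2. Median widths were 461 bp on the left arm and 428 bp on the rest of II in replicate 1, and 508 bp and 555 bp in replicate 2.

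Sharing between the replicates on the arm differed by the list it was counted from. Of the replicate 1 peaks, 35 of 99 on the left arm overlapped a replicate 2 peak (35.4%, interval 26.6 to 45.2), against 209 of 323 on the rest of II (64.7%, interval 59.3 to 69.7) and 62.5% of the whole replicate 1 list. Of the replicate 2 peaks, 35 of 102 on the left arm overlapped a replicate 1 peak (34.3%, interval 25.8 to 43.9), against 198 of 571 on the rest of II (34.7%, interval 30.9 to 38.7) and 34.9% of the whole replicate 2 list. The 64 replicate 1 peaks of the arm that were not shared had a median width of 589 bp, and the 35 shared ones 333 bp. On the rest of II the order was the other way, with 363 bp for the unshared and 449 bp for the shared. Of those 64, 46 overlapped a series peak, and 23 of these lay within the 6 wide series peaks described below. The unshared peaks were thus partly clustered in a few places, which the intervals do not take into account.

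The share of replicate peaks that met a series peak was higher on the left arm than on the rest of II in both replicates, a difference not tested. For replicate 1 it was 76 of 99 (76.8%, interval 67.5 to 84.0), against 201 of 323 (62.2%, interval 56.8 to 67.3) and 65.2% of its whole list. For replicate 2 it was 94 of 102 (92.2%, interval 85.3 to 96.0), against 470 of 571 (82.3%, interval 79.0 to 85.2) and 83% of its whole list. The series peaks cover more of the arm, and a 1 bp overlap is met more easily there; that part was not tested. Replicate 1 peaks that met a series peak in a run were shared with replicate 2 in 10 of 49 cases, and those that met one outside runs in 20 of 27. In replicate 2 the same counts were 12 of 26 and 20 of 68.

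Some of the strongest replicate 1 peaks of the arm had no counterpart. Its second highest there, at 694327 to 696088 (score 892.32, rank 89 of 2698), overlapped neither a series peak nor a replicate 2 peak. Replicate 1 peaks followed directly at 696149 to 697612 (rank 184) and 697632 to 699162 (rank 303), also with no counterpart, as was the case at 3106107 to 3107371 (rank 118). The fourth highest, at 1246735 to 1247371 (rank 98), was rank 283 in replicate 2 and only rank 1291 in the series list. The fifth, at 1037820 to 1039364 (rank 104), met 3 series peaks whose highest score was 11.7 and no replicate 2 peak.

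In replicate 2 the 5 highest on the arm all had a series peak. The first and second were the counterparts of the peaks from 255023 and 3118808 given above, and the others were at 1134325 to 1135500 (rank 184 of 4580), 155750 to 156438 (rank 225) and 3553344 to 3554059 (rank 269), and the last of these had no replicate 1 peak. Only 8 replicate 2 peaks of the arm were missing from the series list, and the highest of them ranked 2468. At the chromosome end both replicates had a peak from base 1, with rank 366 in replicate 1 and rank 3690 in replicate 2, while the first series peak began at 16349.

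A group of wide series peaks that each contained several replicate 1 peaks was noticed after the values were seen. In the whole series list, 10 peaks overlapped 3 or more replicate 1 peaks; 6 of them lay on the left arm of II, 0 on the rest of II and 4 on other chromosomes. The 6 were 5237 to 6733 bp wide and began at 851104, 1961697, 1970121, 1977416, 2003359 and 2593370. Together they contained 23 replicate 1 peaks, 23.2% of those on the arm, and no replicate 2 peak. These replicate 1 peaks had scores between 50.15 and 144.86, with a median of 66.68. Their ranks in replicate 1 ran from 1003 to 2694 of 2698, which reaches nearly to the end of that list. In 4 of the 6 a replicate 1 peak began between 4701 and 4778 bp before the right edge of the series peak, and these replicate 1 peaks were 571 to 808 bp wide. The layouts of the series peaks beginning at 1970121 and 2593370 were close to each other in their first 3 replicate 1 peaks and not in the fourth. The 4 began 5331, 4743, 3075 and 2474 bp from the right edge in the one at 1970121, and 5251, 4701, 3064 and 1084 bp in the one at 2593370.

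**Figure D5:**
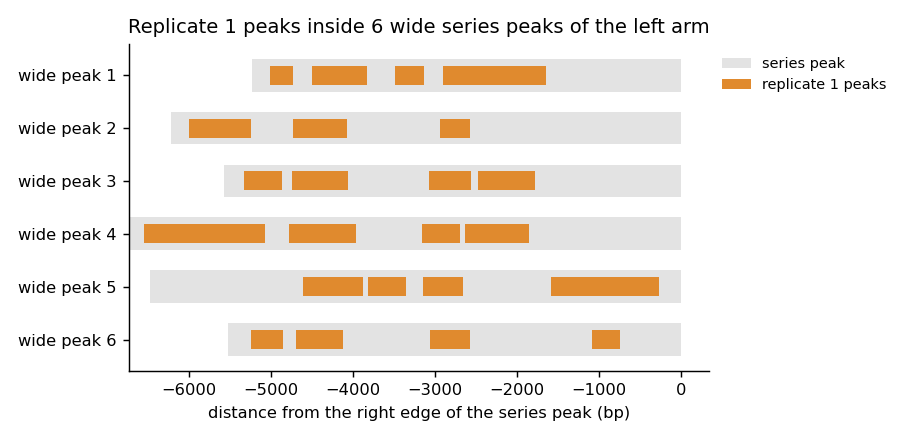
The 6 series peaks of the left arm that contain 3 or more replicate 1 peaks (grey, in order along the arm), drawn with the replicate 1 peaks inside them (orange) by distance from the right edge of the series peak (x axis, bp). In 4 of the 6 a replicate 1 peak begins between 4701 and 4778 bp from that edge.

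At the boundary the last 2 peaks inside were at 3810561 to 3810871 (score 11.88) and 3815534 to 3815773 (score 5.62), each found in replicate 2 only. The first 2 outside were at 3883918 to 3884186 (score 3.48) and 3885148 to 3885859 (score 3.45), neither found in a replicate. Among the 12 arms of the 6 nuclear chromosomes, taken as the outer 25% on each side, the left arm of II was of order 2 by peak density, 3 by covered share and 2 by the share of peaks with no replicate peak. The right arm of I had the highest density, 254 per Mb, with 19.9% covered and 79.5% with no replicate peak. The right arm of V, at 204 peaks per Mb, 32.4% covered and 85.0% with no replicate peak, and the left arm of III, at 191 per Mb, 15.8% and 73.8%, were also near the left arm of II. The left arm of II had the lowest share of peaks found in both replicates, 3.98% (interval 2.82 to 5.59). The share was 4.69% on the right arm of V, 4.92% on the right arm of I and 5.50% on the left arm of V. These shares lay within that interval, and the left arm of III had 7.46%. No test between arms was made.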

How the data were processed

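Peaks were read from 3 deposited lists, 1 for each ChIP replicate and 1 for the whole series, in WormBase WS220 coordinates per the file headers. The source column names MACS for the replicates and MACS v2 for the series; the submitters' processing notes name BWA and ce10. The score in each list is the authors' deposited value per peak, with no named scale; the other deposited measures are the start and end. The sources used here do not give the peak-calling thresholds, the control or any pooling.

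Overlaps, gaps, runs and ranks were computed with pandas 2.3.3, scipy 1.17.1 and numpy 2.4.6 under Python 3.11.15, and tested on simulated data. Chromosome II was taken to end at the largest coordinate of any peak, 15263560. Arm membership used midpoints. Regions were named by fixed rules (highest score, widest, largest runs, boundary). These rules did not cover the 250 kb interval from 1750001, the first 500 kb or the close shared peaks from 3519033. Nor did they cover the equal parts of the arm or the replicate peaks chosen for lacking a series peak. The wide peaks holding several replicate 1 peaks are marked where they appear. The members and definitions were chosen with earlier results of these data known. Genes and peak sequences were not analysed here, since the gene table at hand is of another assembly (WBcel235). Alternatives covered the boundary, score and width limits, overlap rule, gap and replicate lists.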

Additional observations from a re-analysis of the deposited data

How the results depend on the processing

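Of 51 alternative values, 25 lay within the interval or the replicate spread of the reported value, and 26 did not. The interval was a counting interval for density and shares. For the differences in median width and percentile it was that of the left-arm median alone, without the error of the rest of II. The density ratios for each replicate list alone had to lie within the replicate spread, which was computed from those same ratios. Of the 22 values that compare the left arm with the rest of II, 0 changed direction; the others are shares of the left arm alone. Density fell closest to that of the rest of II when peaks were joined (ratio 1.22). It was 2.67 with the boundary at base 4500000, 2.28 among the upper 50% of the list by score, 2.75 with only peaks of up to 1500 bp, 6.02 in covered bp and 2.55 without the densest 1 Mb, an alternative chosen after seeing the data. Without that 1 Mb the width difference was 21.5 bp, 10.3% of the peaks were wide, 71.4% lay in runs and 78.5% had no replicate peak. In that upper 50% the width difference was 545 bp, 32.5% were wide, 50.3% in runs, 7.83% in both replicates and 72.3% in none. The percentile difference there was -6.95, with percentiles ranked anew within that upper 50%. It is therefore not on the scale of the reported difference, although it was counted among the 26. With only peaks of up to 1500 bp, and percentiles of the whole list, the percentile difference was -18.4. At widths over 1000 bp, 21.2% counted as wide. Runs held 70.5% at gaps of at most 1000 bp and 86.5% at 5000 bp. At a 50% reciprocal overlap 2.44% were in both and 90.4% in none; with the upper 50% of each replicate list by score, 1.67% and 90.6%. Leaving out 1 replicate list gave 87.7% to 91.8% with no peak in the other, and density ratios of 0.536 to 0.919; in covered bp, also added after seeing the data, the mean ratio over the replicates was 0.788, although replicate 1 alone was then higher on the arm. Fewer peaks in a list leave fewer overlaps and larger gaps; otherwise the cause was not tested. No paired analysis was possible because no result comes from a test between groups. Depth is unknown, so the lists cannot show that SWD-3 was absent from a place.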
